A study of Homo sapiens with 15 samples.

Results

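The respiratory complex I genes were followed in HEK293T cells, a human embryonic kidney cell line, across 5 groups of RNA-seq libraries. Members were chosen by name as the protein-coding genes of GENCODE release 29 whose symbol starts with NDUF, and they were matched to the deposited values by Ensembl ID. They numbered 48 of the 58735 genes listed: 37 structural subunits, 8 assembly factors of the NDUFAF series and 3 others. The groups were Non-target, labelled as wild type and transduced with lentiCRISPRv2 carrying a non-targeting guide, and the knockout clones, which in the order used below were C9orf89-CKO, MAGI2-CKO, MLPH-CKO and last RHBDD2-CKO, each made with a lentiCRISPRv2 guide against the gene in its name. Each group was a line established by limiting dilution and was sequenced from 3 wells, so that the knockout and other differences between clones cannot be told apart, and p-values measure the spread between wells of 1 line. The study compared the clones with Non-target because supporting cells with these knockouts were studied for how they affect the drug response of tumor cells grown beside them.

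Complex I (NADH:ubiquinone oxidoreductase) takes electrons from NADH, passes them along iron-sulfur clusters in its matrix arm to ubiquinone, and pumps protons through its membrane arm. The matrix arm and the membrane arm are built as separate modules that assembly factors bring together, and the assembly factors are absent from the finished enzyme. The nuclear NDUF genes encode the core subunits of the matrix arm and the accessory subunits of both arms, while the mitochondrial ND genes encode the core of the membrane arm. In bulk RNA, a lower level in every cell and a lower level in some of the cells cannot be told apart.

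Before the complex I genes, the targeted genes were read in each library. The libraries of C9orf89-CKO held C9orf89 at 4.34, 4.27 and 4.34 FPKM, beside 5.70, 7.71 and 6.27 FPKM in Non-target. Those of RHBDD2-CKO held RHBDD2 at 11.2, 13.5 and 12.4 FPKM, beside 27.4, 38.1 and 34.9 FPKM. RHBDD2 was also low in MAGI2-CKO, at 11.7, 13.8 and 16.0 FPKM, and C9orf89 in RHBDD2-CKO, at 4.52, 5.17 and 4.69 FPKM. MAGI2 lay at or below 0.123 FPKM in the 15 libraries and MLPH at 0 in each of them, so that neither transcript checked its label, and a CRISPR deletion of a few bases need not lower a transcript. FPKM are fragments per kilobase of exon, scaled for the depth of the library. The scale was not exactly the total of fragments in genes. A fragment per kilobase was 0.0623 FPKM in Non-target library 1, with 16265355 fragments, and 0.0615 FPKM in RHBDD2-CKO library 3, with 15517856. The libraries held 15517856 to 19489918 fragments in genes, as worked out from the steps between FPKM values. The kidney line's markers were present: 7 of the 8 HEK293T cell markers (VIM, NEFL, NEFM, CDH2, PAX2, LHX1, SALL4, EPCAM) passed the filter on low values, their summed level was 64.4 to 163.7 FPKM per library, and VIM was the most abundant. NEFL and NEFM were far from even, since the mean of NEFL was 0.984 FPKM in RHBDD2-CKO beside 18.8 FPKM in Non-target, and that of NEFM 0.0274 FPKM in MAGI2-CKO beside 27.2 FPKM. None of the 10 monocyte markers that would show U937 cells passed the filter, their summed level was at most 0.629 FPKM in a library, with SPI1 the most abundant and MPO at 0 throughout. Of 8 fibroblast markers 2 passed the filter, with a summed level of 3.10 to 5.88 FPKM per library that was mostly COL1A1.

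The levels of the complex I genes differed widely on the FPKM scale. NDUFS5, an accessory subunit that faces the intermembrane space, was the most abundant with a mean of 303.1 FPKM over the 15 libraries, followed by NDUFB10 at 196.6 FPKM and NDUFB7 at 163.1 FPKM, both of the distal membrane arm. At the other end stood NDUFA13 at 1.05 FPKM, NDUFA7 at 0.43 FPKM and NDUFV2 at 0.16 FPKM. These are structural subunits of an enzyme whose other subunits stood at 1.90 FPKM or above, and NDUFV2 is one of the core subunits that carry the iron-sulfur clusters. Each of these low genes shared exons on its own strand with an overlapping gene. For NDUFV2, 84.7% of the coding bases lay in AP005263.1, which was listed at 0, and for NDUFA7 78.3% lay in AC010323.1. For NDUFA13 55.2% of the coding bases were shared, and AC011448.1 was the gene with the most shared exon bases. The same held for NDUFB8 (85.2%), NDUFC2 (76.9%), NDUFA9 (67.9%) and NDUFA11 (36.9%), whose levels were 9.48, 8.67, 1.90 and 3.89 FPKM. A counter that leaves out reads assigned to more than 1 gene loses such reads, and the part of this in the low values was not tested, so the levels of these 7 genes are uncertain. The length in FPKM covers the exons of every annotated transcript, 12268 bases in NDUFS1, and how many of these bases the transcripts of these cells hold was not tested.

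The filter asked for 0.5 FPKM or more in 3 or more libraries, which kept 46 of the 48 members and dropped NDUFV2 and the read-through gene NDUFC2-KCTD14. The test was limma on log2(FPKM + 0.1) with all 15 libraries in 1 model, adjusted by Benjamini-Hochberg over the 16175 genes of each contrast with a threshold of 0.05, and the fold changes below are on that scale. The NDUF genes were lower more often than higher in each clone. In C9orf89-CKO, 12 of 46 were lower and 0 higher, where 13.1% and 12.9% of all tested genes were. In RHBDD2-CKO, 12 were lower and 0 higher against 16.7% and 17.4% of all genes. In both contrasts 0 members were higher at an unadjusted p under 0.05, and 0 with limma's voom on the fragments. The shares of all genes for these counts are not given, so nothing is drawn from them.

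MAGI2-CKO had 9 members lower and 2 higher, against 19.1% and 17% of all genes. MLPH-CKO had 7 lower and 1 higher, against 15.5% and 14.5%. In each of these clones 1 of the lower members was NDUFA4, which bears the name but is not a complex I subunit. The share of lower members was therefore above that of all genes in C9orf89-CKO and RHBDD2-CKO and near it in MAGI2-CKO and MLPH-CKO with all libraries in the model. This split between clones did not hold without the libraries numbered 1, where the share was above that of all genes in each clone. The counts also fell in other settings. In RHBDD2-CKO 7 members were lower with quantile normalization or without its replicate 2 or 3. In C9orf89-CKO 6 or 7 were lower without its replicate 2 or 3 or replicate 2 of Non-target. The share of all genes in these settings is not given, so whether the excess held there was not tested. The median log2 fold change of the 46 members was -0.20, -0.15, -0.16 and -0.27 in the 4 clones, where the median of all genes was within 0.01 of 0. Members below 0 made up 84.8%, 71.7%, 76.1% and 91.3% of those tested, beside 49.7% to 50.8% of all genes. The 4 contrasts share the Non-target libraries, so a level that happened to be high there would lower a gene in each of them.

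Across the 4 contrasts, 40 of 43 calls were of lower level. They fell on 23 of 46 members, beside 35.7% of all genes lower in at least 1 clone. Another 2 members (NDUFAF1 and NDUFV3) were higher in at least 1, beside 33.1% of all genes, and 21 passed in no clone. In 42 of the 43 calls the 3 libraries of the clone did not overlap with the 3 of Non-target, as in 97.5% of the calls over all genes. A test of any difference between the 5 groups passed for 18 of 46 members, beside 61% of all tested genes. Differences between clones given below come from the same model, in which 41.6%, 37% and 29.3% of genes differed between RHBDD2-CKO and MAGI2-CKO, MLPH-CKO or C9orf89-CKO, 22.5% between MAGI2-CKO and C9orf89-CKO, 14.2% between MLPH-CKO and C9orf89-CKO and 21.2% between MLPH-CKO and MAGI2-CKO.

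**Figure D1:**
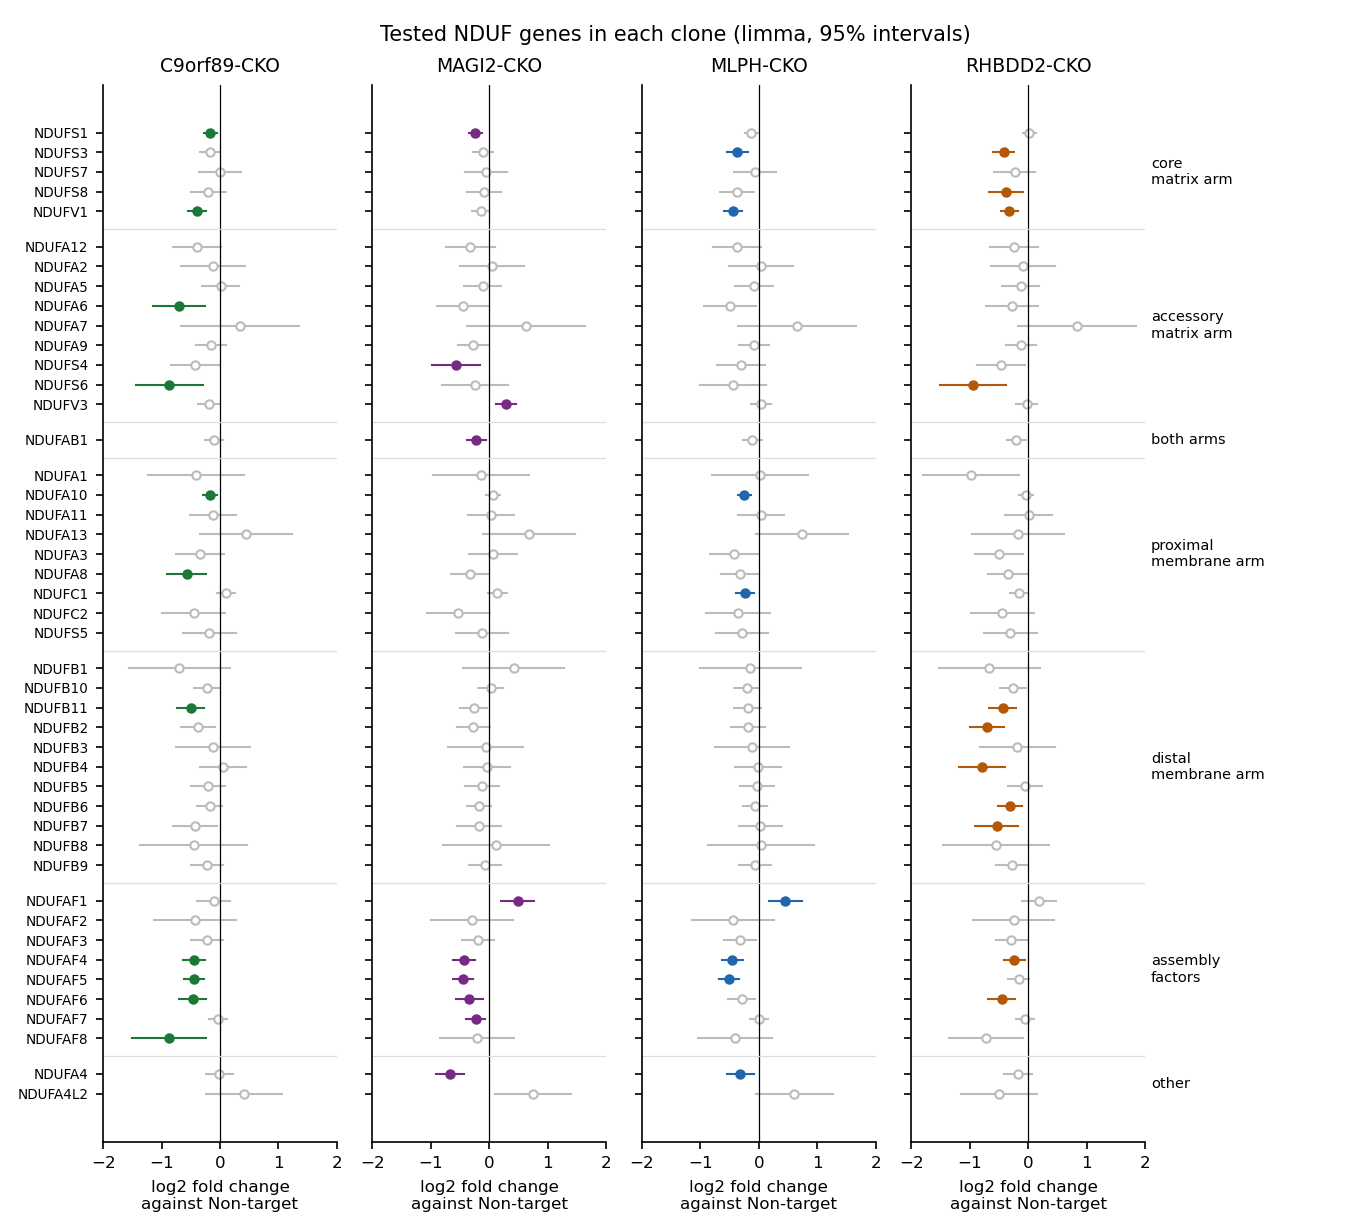
Log2 fold change against Non-target (x axis) with its 95% interval for the tested NDUF genes described here in each clone, grouped by role; filled coloured points passed the threshold and open grey points did not. Most points lie to the left of 0, from 71.7% of members in MAGI2-CKO to 91.3% in RHBDD2-CKO, and the filled points on the right are NDUFAF1 in MAGI2-CKO and MLPH-CKO and NDUFV3 in MAGI2-CKO.

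The summed level of the 37 subunits gave the same order. It was 1965, 1983 and 1848 FPKM in the libraries of Non-target and 1653, 1500 and 1548 FPKM in those of C9orf89-CKO. In RHBDD2-CKO it was 1721, 1386 and 1337 FPKM, so that these 2 clones lay wholly below Non-target. MAGI2-CKO with 1856, 1633 and 1759 FPKM and MLPH-CKO with 2107, 1550 and 1516 FPKM overlapped with it. The sum is carried by the few most abundant genes and is given without a test.

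The library numbered 1 stood apart in this sum. It was the highest of its group in each of the 4 clones, and in MLPH-CKO it lay above every Non-target library while the other 2 lay far below. Gene by gene, the library numbered 1 minus the mean of the other 2 had a median over the 46 members of 0.08 in Non-target and of 0.05, 0.17, 0.29 and 0.23 in the 4 clones on the log2 scale. Library 2 minus library 3 had medians of 0.07 in Non-target and -0.06, -0.09, 0.01 and 0.01 in the clones. By this median the library numbered 1 did not stand apart in Non-target and C9orf89-CKO. Over all genes the median of the library numbered 1 minus the other 2 was within 0.02 of 0 in every group. The library numbered 1 still stood apart over all genes. Its chi-square per gene against the others of its group was 14.6 to 24.8, beside 2.40 to 6.54 between libraries 2 and 3. Among the members the difference had a pattern by gene: 18 members were higher in the library numbered 1 of all 5 groups and 4 were lower in all 5. NDUFB8, NDUFB1, NDUFA1 and NDUFAF2 were the highest there, with mean differences of 0.95, 0.89, 0.87 and 0.73, and NDUFS7 and NDUFS8 were among the lowest with -0.36 and -0.29 (genes chosen after their values were seen). The labels give no date, plate or extraction for these libraries, and the part of any of them in the pattern was not tested.

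Leaving out the 5 libraries numbered 1 raised the counts. Members lower then numbered 24, 19, 25 and 29 in the 4 clones, where 17.2%, 21.7%, 20.3% and 22.2% of all genes were lower, and 0, 5, 1 and 1 members were higher, where 15.2%, 18.7%, 16.6% and 19.8% of all genes were. The test across the 5 groups then passed for 35 members, beside 67.8% of all genes. Of the calls of lower level made with all libraries, 10 of 12 in C9orf89-CKO and 9 of 9, 7 of 7 and 12 of 12 in the other clones were also made without them.

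**Figure D2:**
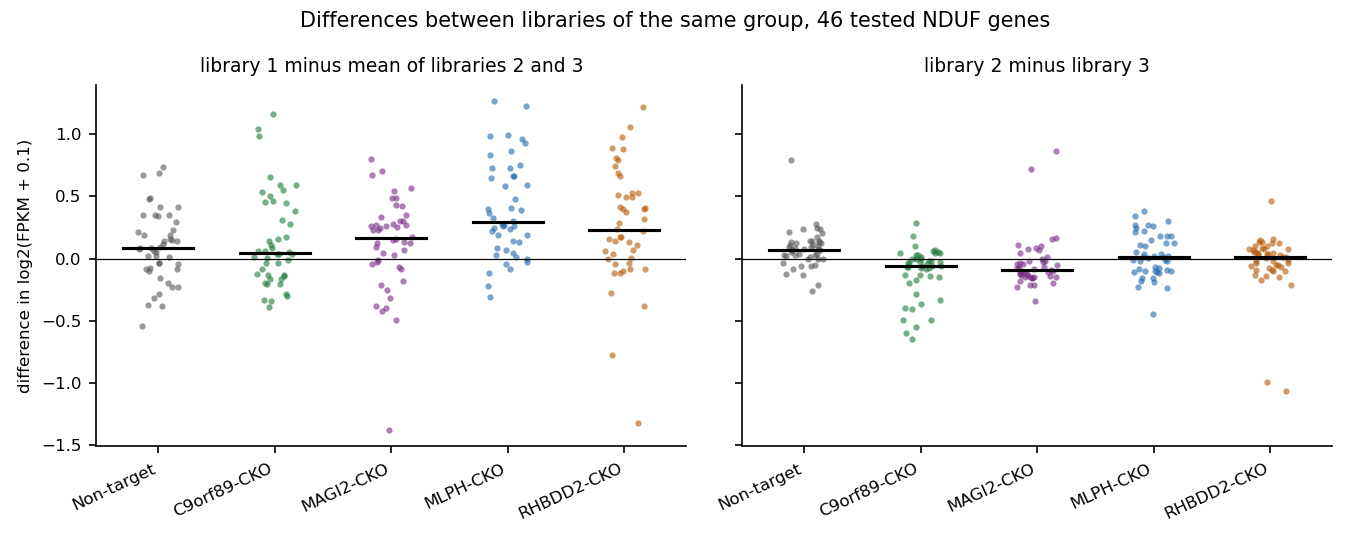
Differences in log2(FPKM + 0.1) between libraries of 1 group for the 46 tested NDUF genes, with the library numbered 1 minus the mean of the other 2 on the left and library 2 minus library 3 on the right; each point is a gene and the bar is the median. The medians on the left lie between 0.05 and 0.29 and the points spread wider than on the right.

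Among the core subunits of the matrix arm, NDUFV1 was lower in 3 clones. NDUFV1 holds the flavin that takes the electrons from NADH. Its level was 41.6, 51.3 and 46.5 FPKM in the Non-target libraries, 35.7, 34.4 and 35.3 FPKM in C9orf89-CKO, 34.4, 32.8 and 34.7 FPKM in MLPH-CKO, 36.4, 38.3 and 36.4 FPKM in RHBDD2-CKO, and 40.9, 40.0 and 44.3 FPKM in MAGI2-CKO. The libraries of 3 clones lay below those of Non-target without overlap, and those of MAGI2-CKO overlapped with them. The log2 fold changes were -0.40 ± 0.07 (SE, limma, adjusted p = 0.00113) in C9orf89-CKO, -0.45 ± 0.07 (adjusted p = 0.000408) in MLPH-CKO and -0.32 ± 0.07 (adjusted p = 0.00345) in RHBDD2-CKO, and -0.15 in MAGI2-CKO. The median of the 100 tested genes closest to NDUFV1 on its chromosome was -0.22 in MLPH-CKO and -0.08 in the other 2 clones with a call. MAGI2-CKO stood above C9orf89-CKO by 0.25 (adjusted p = 0.0225) and above MLPH-CKO by 0.29 (adjusted p = 0.00887) in the contrasts between clones.

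NDUFS1, the largest subunit of the matrix arm, was lower in MAGI2-CKO by -0.24 ± 0.05 (SE, limma, adjusted p = 0.00278) and in C9orf89-CKO by -0.16 (adjusted p = 0.0331), the latter call being lost in 10 of 26 alternatives, among them that without the libraries numbered 1 (adjusted p = 0.0635). Its level in RHBDD2-CKO was 14.7, 14.2 and 13.7 FPKM beside 14.5, 13.5 and 14 FPKM in Non-target, so these groups overlapped. NDUFS3 was lower in MLPH-CKO (-0.37 ± 0.08, limma, adjusted p = 0.00439) and RHBDD2-CKO (-0.42 ± 0.08, adjusted p = 0.00176), and the median of its 100 nearest tested genes on chromosome 11 was -0.25 in MLPH-CKO and -0.08 in RHBDD2-CKO. NDUFS8, a carrier of iron-sulfur clusters, was lower in RHBDD2-CKO alone among the calls (-0.38, adjusted p = 0.0441), a call that was lost in 17 of 26 alternatives, and its values in the other clones were -0.20, -0.09 and -0.37. NDUFS7, the core subunit next to the ubiquinone site, did not pass in any clone, with values between -0.23 and 0.00, and 48.5% of its coding bases overlap genes on the opposite strand. NDUFV2 was not tested, and its highest count in a library was 13 fragments.

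Among the assembly factors, NDUFAF4 was lower in every clone. It acts with NDUFAF3 in building the part of the matrix arm that holds the ubiquinone site. Its level was 19.3, 20.4 and 20.5 FPKM in the Non-target libraries, 13.5, 15.1 and 15.8 FPKM in C9orf89-CKO, 15.3, 14.7 and 14.5 FPKM in MAGI2-CKO, 16.5, 14.3 and 13.2 FPKM in MLPH-CKO, and 18.5, 15.9 and 16.8 FPKM in RHBDD2-CKO. The 12 libraries of the clones lay below the 3 of Non-target. The log2 fold changes were -0.44, -0.43 and -0.45 ± 0.09 (SE, limma, adjusted p = 0.00225, 0.00156 and 0.00157) in the first 3 clones, and -0.24 ± 0.09 (adjusted p = 0.0492) in RHBDD2-CKO.

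NDUFAF4 was the member lower in all 4 clones, 1 of 46 beside 3.26% of all tested genes, and 0 members were higher in all 4 beside 3.39%. Its call in RHBDD2-CKO was lost in 17 of 26 alternatives, with adjusted p between 0.0024 and 0.165, whereas its calls in the other 3 clones held in all 26. Without the 5 libraries numbered 1, 8 members were lower in all 4 clones, beside 5.02% of all genes, and 0 were higher in all 4, beside 4.09%. NDUFAF4 lies on chromosome 6 (96889313 to 96897881, GRCh38, minus strand), and the median log2 fold change of its 100 nearest tested genes was between -0.04 and 0.08 in the 4 clones.

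NDUFAF5 hydroxylates an arginine of NDUFS7 during assembly. It stood at 2.91, 2.94 and 2.78 FPKM in the Non-target libraries, 1.96, 2.02 and 2.29 FPKM in C9orf89-CKO, 2.24, 1.98 and 2.02 FPKM in MAGI2-CKO and 1.97, 1.95 and 2.06 FPKM in MLPH-CKO. The 9 libraries of these clones did not reach the Non-target libraries. The log2 fold changes were -0.45, -0.45 and -0.51 ± 0.08 (SE, limma, adjusted p = 0.00143, 0.000794 and 0.000463). RHBDD2-CKO stood at 2.73, 2.49 and 2.47 FPKM and did not pass with -0.16, and it was above the other clones by 0.28, 0.29 and 0.35 (adjusted p = 0.0186, 0.0117 and 0.00452).

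NDUFAF5 had the smallest p of the test across the 5 groups among the members (adjusted p = 0.000453, limma F test). The tested genes most like it over the 15 libraries were ASNSD1 (Pearson r = 0.948), POLR1E (0.946), DENND6A (0.940), ARMCX2 (0.936) and MIER2 (0.936), which is a description of points that share groups and libraries. NDUFAF8, the partner of NDUFAF5, was lower in C9orf89-CKO, with 39.6, 24.4 and 29.7 FPKM beside 65.8, 56.4 and 47.7 FPKM (-0.87 ± 0.29, limma, adjusted p = 0.0442). The values of the library numbered 1 were the highest in both groups, and the call was lost in 11 of 26 alternatives. In the other clones it was at -0.21, -0.41 and -0.72, and without the libraries numbered 1 it also passed in MLPH-CKO (limma, adjusted p = 0.0273) and RHBDD2-CKO (adjusted p = 0.00361).

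NDUFAF6 was lower in 3 clones. It acts early in assembly, and stood at 2.65, 2.69 and 2.56 FPKM in the Non-target libraries, 1.93, 1.72 and 1.99 FPKM in C9orf89-CKO, 2.34, 1.92 and 1.93 FPKM in MAGI2-CKO and 1.80, 1.93 and 2.00 FPKM in RHBDD2-CKO. The clones lay below Non-target without overlap, with log2 fold changes of -0.47, -0.34 and -0.45 ± 0.11 (SE, limma, adjusted p = 0.00626, 0.0238 and 0.00624). In MLPH-CKO it was at -0.29 and did not pass, and its 100 neighbours had a median of -0.20 in MAGI2-CKO. NDUFAF7, a methyltransferase of complex I assembly, was lower in MAGI2-CKO (-0.23, limma, adjusted p = 0.0255).

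NDUFAF1, which stabilises an early membrane arm intermediate together with ECSIT, ACAD9 and TMEM126B, went the other way. It stood at 12.5, 11.8 and 12.1 FPKM in Non-target, 19.1, 15.4 and 16.8 FPKM in MAGI2-CKO and 20.1, 14 and 16.5 FPKM in MLPH-CKO. The libraries of both clones lay above those of Non-target, with log2 fold changes of 0.48 and 0.46 ± 0.13 (SE, limma, adjusted p = 0.0116 and 0.0193). Its 100 neighbours on chromosome 15 had medians of 0.51 and 0.56 in these clones, about as much as NDUFAF1 itself. NDUFAF2 and NDUFAF3 did not pass in any clone, with values from -0.44 to -0.25 and from -0.32 to -0.20. Without the libraries numbered 1, NDUFAF2 passed as lower in the 4 clones (limma, adjusted p = 0.0084, 0.0378, 0.00177 and 0.0159) and NDUFAF3 in MLPH-CKO and RHBDD2-CKO (adjusted p = 0.0172 and 0.0282). In all, 4, 4, 2 and 2 of the 8 NDUFAF genes were lower in the 4 clones, where 13.1%, 19.1%, 15.5% and 16.7% of all genes were. Leaving out the libraries numbered 1 gave 5, 5, 6 and 5, where 17.2%, 21.7%, 20.3% and 22.2% of all genes were lower.

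**Figure D3:**
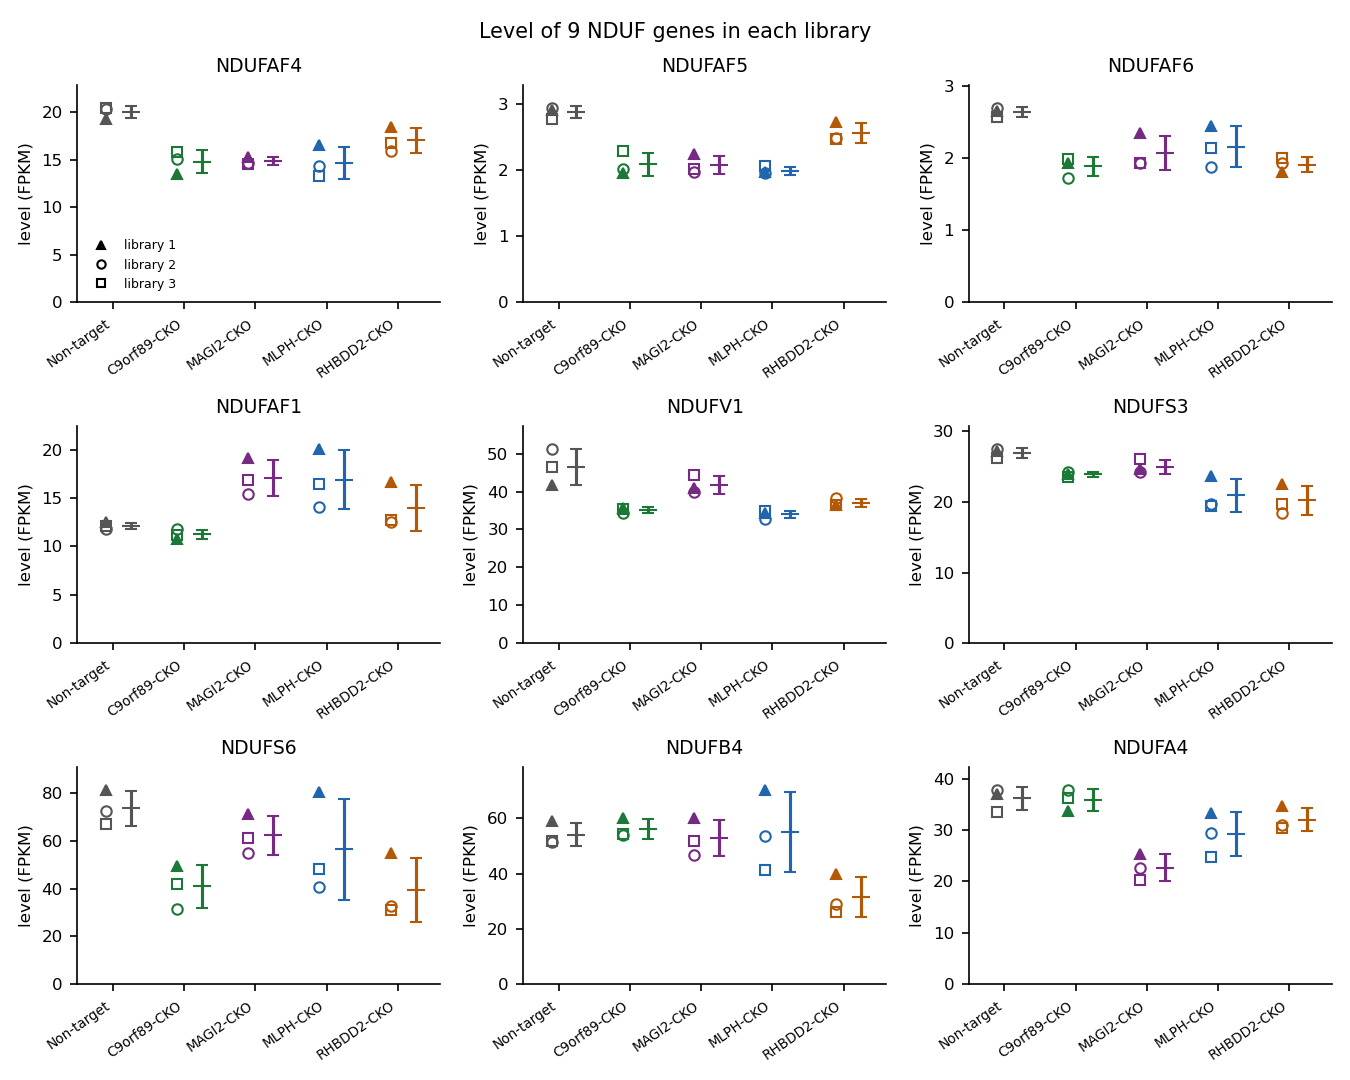
Level in FPKM of 9 NDUF genes in each of the 15 libraries, with the mean and SD of each group beside its libraries (triangle, circle and square for the libraries numbered 1, 2 and 3). NDUFAF4 in the clones lies between 13.2 and 18.5 FPKM, below the 19.3 to 20.5 FPKM of Non-target, while NDUFAF1 is above Non-target in MAGI2-CKO and MLPH-CKO and NDUFA4 is lowest in MAGI2-CKO.

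Many respiratory genes carry sites for NRF1, a transcription factor of nuclear genes for mitochondrial proteins, close to their start. RefSeq promoters (GRCh38.p14, 250 bases before to 50 after the start) were matched for 40 of the 48 members. The letters GCATGCGC, a core of the NRF1 motif, occurred on either strand in 7 of 40 (17.5%), beside 3.05% of all 35116 promoters of that length. The 7 windows are shown to let these members be compared, and nothing about their levels is drawn from the match. Each window holds 28 bases read along the strand of the motif, with the motif in capitals.
NDUFA6: ctgtagatgaGCATGCGCagcacccacc
NDUFA8: tgccggatgcGCATGCGCaggcgccgtg
NDUFAF4: gacacccggaGCATGCGCacaagtgagg
NDUFAF5: ccgcgctggcGCATGCGCacaaaaagcg
NDUFB4: agcacttcgcGCATGCGCatatcaccga
NDUFS6: tagcgctaacGCATGCGCacggcttctg
NDUFS7: tccggtttccGCATGCGCtccgagccgc
In NDUFA8, NDUFAF5 and NDUFB4 the motif is flanked by bases that also spell it on the opposite strand, shifted by 2 bases, so both readings overlap. The windows lie at chr22:42090921-42090948, chr9:122159764-122159791, chr6:96897868-96897895, chr20:13785016-13785043, chr3:120596169-120596196, chr5:1801351-1801378 and chr19:1383824-1383851 in the order shown.

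Of the other motifs searched, the letters CCGGAAG, a core of ETS and GABP sites, were in 6 of 40 members (15%) and 10.3% of all promoters, and GGGCGG, the GC box of SP1, in 23 of 40 (57.5%) and 45.0%. AAGATGGCG, the core of YY1 sites, was in 5 of 40 (12.5%) and 1.75%. Both strands were searched, and a match is a description and no evidence of binding. The 250 bases before the start of NDUFAF4 (chr6:96897892-96898141, minus strand) and of NDUFS6 (chr5:1801157-1801406, plus strand) are shown for the member lower in all 4 clones and for the one with the largest log2 fold change past the threshold, with motif letters in capitals, in NDUFAF4 the ETS core and in NDUFS6 the GC box and the NRF1 core, both of the latter as read from the opposite strand.
NDUFAF4: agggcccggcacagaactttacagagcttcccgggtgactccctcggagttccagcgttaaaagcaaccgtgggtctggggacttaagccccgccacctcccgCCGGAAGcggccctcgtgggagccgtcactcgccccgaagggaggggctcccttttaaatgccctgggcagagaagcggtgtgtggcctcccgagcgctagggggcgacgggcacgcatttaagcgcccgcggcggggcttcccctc
NDUFS6: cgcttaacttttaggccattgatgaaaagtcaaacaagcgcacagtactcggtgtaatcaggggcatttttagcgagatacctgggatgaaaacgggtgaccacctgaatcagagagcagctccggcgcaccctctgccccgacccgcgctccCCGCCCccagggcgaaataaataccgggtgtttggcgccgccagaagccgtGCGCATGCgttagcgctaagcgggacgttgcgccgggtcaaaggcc

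Among the accessory subunits of the matrix arm, NDUFS6 had the largest fold change that passed. NDUFS6 binds zinc and joins the matrix arm late. It stood at 81.3, 72.3 and 66.9 FPKM in the Non-target libraries, 49.4, 31.5 and 41.8 FPKM in C9orf89-CKO, 55.0, 32.6 and 31.0 FPKM in RHBDD2-CKO, 71.1, 54.7 and 61.0 FPKM in MAGI2-CKO and 80.4, 40.8 and 48 FPKM in MLPH-CKO. C9orf89-CKO and RHBDD2-CKO lay below Non-target without overlap, at 55.6% and 53.8% of its level. The log2 fold changes were -0.86 and -0.94 ± 0.26 (SE, limma, adjusted p = 0.0275 and 0.0144). In MLPH-CKO the library numbered 1 lay among those of Non-target and the other 2 below, and the value of -0.44 did not pass (limma, adjusted p = 0.235, and 0.00778 without the libraries numbered 1).

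NDUFA6, a subunit that binds the acyl carrier protein, was lower in C9orf89-CKO, with 41.7, 33.7 and 35.1 FPKM beside 69.9, 57.7 and 52.4 FPKM in Non-target (-0.70 ± 0.21, limma, adjusted p = 0.0247). Its 100 neighbours on chromosome 22 had a median of -0.29. NDUFS4 was lower in MAGI2-CKO, with 20.9, 13.9 and 16.0 FPKM beside 25.7, 23.3 and 25.4 FPKM (-0.57 ± 0.19, limma, adjusted p = 0.0318). NDUFV3 was higher in MAGI2-CKO (0.28, limma, adjusted p = 0.0162), where its libraries at 11.9, 11.5 and 12.4 FPKM lay above the 9.64 to 10.1 FPKM of Non-target and its 100 neighbours had a median of 0.18. NDUFAB1, the acyl carrier protein that sits in both arms and also serves mitochondrial fatty acid synthesis, was lower in MAGI2-CKO by -0.22 (limma, adjusted p = 0.0317). NDUFA7 was tested with 4 libraries at the filter and did not pass, with standard errors of 0.47 on the log2 scale.

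In the distal membrane arm, 1, 0, 0 and 5 of 11 subunits were lower in the 4 clones (limma), where 13.1%, 19.1%, 15.5% and 16.7% of all genes were. Without the libraries numbered 1 these counts were 6, 4, 4 and 10, where 17.2%, 21.7%, 20.3% and 22.2% of all genes were lower. The counts thus depend on those libraries, and the difference in counts between clones was not tested. NDUFB4 stood at 39.8, 29.1 and 26.0 FPKM in RHBDD2-CKO and at 58.9, 51.6 and 51.8 FPKM in Non-target, and the libraries of the other clones were between 41.2 and 70.4 FPKM. Its libraries in RHBDD2-CKO thus lay below all others. The log2 fold change was -0.79 ± 0.18 (SE, limma, adjusted p = 0.00487), and RHBDD2-CKO was lower than C9orf89-CKO, MAGI2-CKO and MLPH-CKO by -0.85, -0.76 and -0.79 (adjusted p = 0.00338, 0.00467 and 0.00426). NDUFB2 was lower by -0.70 ± 0.13 (adjusted p = 0.00148), with 17.8, 13.8 and 12.9 FPKM beside 24.9, 24.4 and 22.4 FPKM. Of its coding bases 45.2% overlap genes on the opposite strand, and BRAF is the gene there that shares the most exon bases. The 100 neighbours of NDUFB2 on chromosome 7 had a median of -0.32. NDUFB7 (-0.54, limma, adjusted p = 0.0269), NDUFB11 (-0.44, adjusted p = 0.00735) and NDUFB6 (-0.31, adjusted p = 0.0273) completed the 5. NDUFB11, which is X-linked, was also lower in C9orf89-CKO (-0.50 ± 0.11, limma, adjusted p = 0.00419), with 68.7, 86.7 and 87.9 FPKM beside 104, 130 and 110 FPKM in Non-target.

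In the proximal membrane arm 2, 0, 2 and 0 of 9 subunits were lower in the 4 clones (limma), beside the same 13.1%, 19.1%, 15.5% and 16.7% of all genes. Without the libraries numbered 1 the counts were 6, 2, 6 and 5, beside 17.2%, 21.7%, 20.3% and 22.2% of all genes. The 2 in MAGI2-CKO were near that share. NDUFA8 was lower in C9orf89-CKO, where it stood at 81.2, 81.4 and 82.8 FPKM beside 126, 122 and 116 FPKM in Non-target (-0.57 ± 0.15, limma, adjusted p = 0.014). The other clones were at -0.34, -0.32 and -0.35, which did not pass with all libraries and passed without those numbered 1 (limma, adjusted p = 0.00249, 0.00166 and 0.000963). NDUFA10, a subunit related to deoxynucleoside kinases, was lower in C9orf89-CKO (-0.17, adjusted p = 0.0357, lost in 10 of 26 alternatives) and MLPH-CKO (-0.24, adjusted p = 0.00422), both differences being small beside those of NDUFA8. NDUFC1 was lower in MLPH-CKO (-0.24, limma, adjusted p = 0.0255), the single call whose libraries overlapped with Non-target, and its 100 neighbours on chromosome 4 had a median of -0.41. NDUFS5 and NDUFA13 did not pass in any clone. NDUFA13 was at 0.966, 0.596 and 0.737 FPKM in Non-target and at 1.29, 1.43 and 1.25 FPKM in MLPH-CKO, without overlap (0.74, adjusted p = 0.151, limma), while the other clones overlapped with Non-target, with 84 fragments at most in a library.

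NDUFA4 bears the family name but belongs to cytochrome c oxidase, complex IV. It stood at 25.4, 22.5 and 20.2 FPKM in MAGI2-CKO and at 37.1, 37.8 and 33.5 FPKM in Non-target, without overlap (-0.67 ± 0.11, limma, adjusted p = 0.000358). Its 100 neighbours on chromosome 7 had a median of -0.63 in this clone, close to its own value. In MLPH-CKO it was at 33.4, 29.4 and 24.8 FPKM (-0.31, adjusted p = 0.0437), a call lost in 13 of 26 alternatives, with a neighbour median of -0.05. NDUFA4L2, a homologue known to rise in hypoxia, had a mean of 0.49 FPKM and 44 fragments at most in a library, and did not pass against Non-target. Its libraries stood at 0.255, 0.126 and 0.350 FPKM in RHBDD2-CKO and at 0.551, 0.809 and 0.712 FPKM in MAGI2-CKO. It reached the filter in 7 libraries, 0 of them of RHBDD2-CKO, and had as few as 6 fragments in a library, so no test between these clones is given. NDUFC2-KCTD14 had 2 fragments at most, and its exons all lie in NDUFC2 or KCTD14.

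The 7 mitochondrial ND genes, which encode the membrane arm core, did not pass in any clone with all libraries in the model. Their summed level was 12239, 6627 and 7002 FPKM in the Non-target libraries, 11913, 6106 and 6415 FPKM in C9orf89-CKO, 14347, 8909 and 9758 FPKM in MAGI2-CKO, 12637, 13314 and 9859 FPKM in MLPH-CKO and 8409, 6187 and 5870 FPKM in RHBDD2-CKO. The library numbered 1 was the highest in 4 of the 5 groups and far above the others in Non-target and C9orf89-CKO. None of the 7 passed in any contrast (limma), with medians of 0.05, 0.42, 0.52 and -0.34. With limma's voom on the fragments, 2 of the 7 passed as higher in MAGI2-CKO and 2 in MLPH-CKO, and the share of all genes in that fit is not given. When the libraries numbered 1 were left out, the counts higher were 1, 5, 6 and 2 of 7 in the 4 clones, beside 15.2%, 18.7%, 16.6% and 19.8% of all genes. The counts higher in C9orf89-CKO and RHBDD2-CKO were near those shares. The counts lower were 1, 0, 0 and 1, beside 17.2%, 21.7%, 20.3% and 22.2% of all genes, and the medians were 0.07, 0.54, 0.93 and -0.04. MT-ND1 stood at 673 ± 220 FPKM in Non-target, 1051 ± 184 in MAGI2-CKO and 1071 ± 264 in MLPH-CKO (SD, n = 3).

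Of the 11 assembly factors of complex I that do not bear the NDUF name, 2, 6, 3 and 4 were lower and 1, 0, 0 and 1 higher in the 4 clones, where 13.1%, 19.1%, 15.5% and 16.7% of all genes were lower. The count in C9orf89-CKO was close to that share. DMAC1, a factor of the distal membrane arm, was the most changed of these: it stood at 23.6 ± 0.074 FPKM in Non-target and at 9.86 ± 0.13, 10.2 ± 0.64, 11.7 ± 1.46 and 11.3 ± 1.13 FPKM in the clones (SD, n = 3), and its log2 fold changes were -1.25, -1.21, -1.02 and -1.06 ± 0.09 (SE, limma, adjusted p = 6.57e-07, 5.63e-07, 3.61e-06 and 2.25e-06). Each of these was larger than any fold change of an NDUF gene that passed. ACAD9, which works with NDUFAF1, was lower in RHBDD2-CKO (-0.68 ± 0.07, limma, adjusted p = 9.08e-06), MAGI2-CKO (-0.33, adjusted p = 0.00199) and MLPH-CKO (-0.23, adjusted p = 0.0203), the opposite of NDUFAF1 in the latter clones.

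Of 9 complex III genes, 3, 4, 2 and 4 were lower and 0 higher in the 4 clones. In these clones 13.1%, 19.1%, 15.5% and 16.7% of all genes were lower. The share in complex III was near that of all genes in MLPH-CKO and above it in the other clones. UQCRC1, a core protein, was lower in each clone by -0.63, -0.49, -0.50 and -0.45 (limma, adjusted p = 0.00037, 0.00147, 0.00171 and 0.00311). Of 11 tested complex IV genes, 2, 2, 1 and 7 were lower and 0 higher, near the share of all genes in the first 3 clones and above it in RHBDD2-CKO, among them COX7A2 and COX5B in RHBDD2-CKO (-0.69 and -0.59, limma, adjusted p = 0.037 and 0.0434). No gene of complex III or IV was higher at an unadjusted p under 0.05 either, and the share of all genes at that p is not given.

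In complex II, 3, 3, 1 and 1 of 8 were lower and 1 in each clone higher, where 13.1%, 19.1%, 15.5% and 16.7% of all genes were lower and 12.9% to 17.4% higher. The counts of lower genes in MLPH-CKO and RHBDD2-CKO were below those shares. In this complex SDHD was lower in each clone, by -0.27, -0.87, -0.37 and -0.30 (limma, adjusted p = 0.0347, 7.36e-06, 0.00606 and 0.0182). SDHAF3 was lower in MAGI2-CKO by -0.52 (adjusted p = 0.000576). The higher gene was SDHB in each clone, with 0.44, 0.33, 0.49 and 0.38 (limma, adjusted p = 0.000619, 0.00312, 0.000248 and 0.00143). SDHB was named after its values were seen. In complex V, 1, 3, 1 and 3 of 18 were lower and 2, 0, 1 and 0 higher, at or below the shares of all genes in each clone and direction. The ATP synthase subunit gene ATP5F1A was lower in MAGI2-CKO by -1.24 (limma, adjusted p = 5.84e-07) and ATP5PB by -0.60 (adjusted p = 4.65e-05). Of 10 tested regulators of respiratory genes, 2 were lower in each clone and 2, 2, 2 and 4 higher, near the shares of all genes except for the 4 in RHBDD2-CKO. TFAM, which maintains and transcribes mitochondrial DNA, was lower in MLPH-CKO (-0.66 ± 0.13, limma, adjusted p = 0.00165) and RHBDD2-CKO (-0.41, adjusted p = 0.0233), and the coactivator gene PPARGC1B was higher in RHBDD2-CKO (0.53, adjusted p = 0.012).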

How the data were processed

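Total RNA of 15 HEK293T wells, 3 per group, was made into NEBNext Ultra RNA libraries, a kit not stated to keep strand, and sequenced on an Illumina NovaSeq. The submitters' processing notes name HISAT2 2.0.5, featureCounts 1.5.0-p3 and DESeq2. The genome build and annotation are not given in the sources used here. The authors deposited 1 value per gene and library without naming its unit, and the values are FPKM: multiplied by the merged exon length of GENCODE release 29 they were whole multiples of 1 step per library within 0.02, which also gave the fragments.

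Groups and library numbers came from the labels. Members and lists were chosen with earlier results of these data known. The 16175 genes that reached 0.5 FPKM in 3 or more of the 15 libraries were tested with limma 3.58.1 in R 4.3.3 on log2(FPKM + 0.1), with a trend (prior degrees of freedom 2.62, residual 10), clone minus Non-target and between clones. Adjustment was by Benjamini-Hochberg within a contrast. In simulated data for C9orf89-CKO against Non-target, 53 of 100 genes changed 1.5-fold and 91 of 100 changed 2-fold were called, with 7 false calls. The simulated fragments had the same spread setting for every gene, and only genes above a minimum of fragments were changed. They held no difference of the libraries numbered 1 from the others. These rates therefore need not hold for the real libraries.

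Named were the core matrix arm subunits, the NDUFAF genes, the 3 other members, the 3 largest calls per clone, members past in all 4 clones, the 3 highest and 3 lowest subunits, members that failed the filter and up to 2 genes per further list. A member counted in all totals is not reported here. Other members that passed were named after their values were seen. Neighbours were the 100 nearest tested genes on the chromosome, without NDUF genes. Alternatives were 2 other pseudocounts, 2 other filters, no trend, quantile normalization, the 6 libraries of a contrast alone, a replicate block, no libraries numbered 1, each library left out and, chosen after seeing the data, library-total scaling and voom on the fragments. Python 3.11.15 with pandas 2.3.3 and matplotlib 3.10.9 did the remaining work.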

Additional observations from a re-analysis of the deposited data

How the results depend on the processing

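For 34 named changes under 26 alternatives (884 values), no direction was reversed. Of these values 757 stayed past the threshold and 127 did not, and 19 changes passed throughout. Leaving out the 5 libraries numbered 1 gave 24, 19, 25 and 29 members lower in the 4 clones (C9orf89-CKO first, RHBDD2-CKO last), 5 higher in MAGI2-CKO and 1 in RHBDD2-CKO, 8 lower in all 4 clones and 35 that differed between any groups. With a replicate block 24, 15, 18 and 27 members were lower (18.7%, 23.7%, 20.9% and 22.5% of all genes). In this fit 4 were lower in all 4 clones, beside 5.16% of all genes. Members that differed between any groups numbered 32 of 46, near the 71.9% of all genes. The numbers were not taken as pairs: the deviations of 30 same-numbered pairs of libraries had a median r of 0.086, and 12 were over 0.1. However, 60 pairs of different number had a median r of -0.089 with 2 over 0.1, and 12 of 15 libraries were closest to their own number. Every call made without the block was also made with it. The share of lower members with the block was above that of all genes in each clone. Of the 7 ND genes 1 was lower in C9orf89-CKO and 2 in RHBDD2-CKO, beside 18.7% and 22.5% of all genes. In MAGI2-CKO 2 were higher and in MLPH-CKO 1, beside 20.7% and 18% of all genes. These ND counts were near the shares of all genes. Quantile normalization left 7 members lower in RHBDD2-CKO, and NDUFAF4 was no longer lower in all 4 clones (0 members) without the filter, without the trend, with the 6 libraries of a contrast alone, with library-total scaling and with voom; the cause was not tested. Leaving out each library in turn gave 6 to 13 members lower in C9orf89-CKO, 5 to 10 lower and 1 to 3 higher in MAGI2-CKO, 5 to 14 lower and 0 to 1 higher in MLPH-CKO, 7 to 18 lower in RHBDD2-CKO, 0 to 2 lower in all 4 clones and 16 to 26 that differed. The share of all genes in these fits is not given, so a change in the members and a change in all genes cannot be told apart. The highest counts of lower members came without a library numbered 1, as with 14 in MLPH-CKO without its own. The lowest, by over 1.5 times, came without replicate 2 or 3 of C9orf89-CKO (6 and 7) or replicate 2 of Non-target (7) in C9orf89-CKO, without replicate 2 of Non-target (5) in MAGI2-CKO and without replicate 2 or 3 of RHBDD2-CKO (7 and 7) in that clone. NDUFAF4 was not lower in all 4 clones without any 1 of 9 of the 10 libraries numbered 2 or 3, the exception being replicate 3 of MLPH-CKO. Genes under about 20 fragments, such as NDUFV2 and NDUFA7, were too shallow to compare.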

Other observations

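The 59 annotated NDUF pseudogenes were nearly silent. Of these, 3 had a mean of at least 0.5 FPKM over the 15 libraries: NDUFA5P11 with 2.21 FPKM, NDUFV2P1 with 1.10 FPKM and NDUFB4P12 with 0.89 FPKM, with at most 35, 39 and 22 fragments in a library. NDUFV2P1 stood above its parent NDUFV2, which had a mean of 0.16 FPKM and at most 13 fragments. Reads shared by a gene and its copy cannot be placed with certainty, so these levels are uncertain.

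The transcript of ESRRA, a nuclear receptor that acts on respiratory genes, was lower in each clone, with 22.3 ± 0.92 FPKM in Non-target and 16.5 ± 0.58, 16.6 ± 0.87, 17.1 ± 2.28 and 16.7 ± 0.46 FPKM in the 4 clones, C9orf89-CKO first and RHBDD2-CKO last (SD, n = 3). Its log2 fold changes were -0.43, -0.42, -0.38 and -0.41 (limma, adjusted p = 0.00213, 0.00156, 0.0035 and 0.00199). GABPA, which encodes the DNA-binding part of an ETS factor of respiratory genes, was higher in C9orf89-CKO (0.32, adjusted p = 0.00859), MLPH-CKO (0.24, adjusted p = 0.0324) and RHBDD2-CKO (0.43, adjusted p = 0.00107), and both genes were singled out after their values were seen. The transcript of NRF1 was lower in C9orf89-CKO (-0.28, limma, adjusted p = 0.0153) and did not pass elsewhere, with -0.15, -0.14 and -0.12.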
